A study of Homo sapiens with 5 samples.

Results

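Insulin and the insulin-like growth factors bind receptor tyrosine kinases at the cell surface, and the activated receptors phosphorylate insulin receptor substrate (IRS) proteins. Phosphorylated IRS proteins recruit phosphoinositide 3-kinase (PI3K), whose lipid product brings the kinase AKT to the membrane, and AKT in turn keeps FOXO transcription factors out of the nucleus. The pathway is best known for its control of glucose uptake, growth and survival. Transcripts of 9 of its genes were followed here, taken by name from the deposited table of 10626 genes: the substrates IRS1 and IRS2, the receptors INSR, IGF1R and IGF2R, the PI3K subunits PIK3R1 and PIK3CA, the kinase gene AKT1 and the transcription factor gene FOXO3. All 9 were in the table, and all 9 passed the filter on low counts. They were chosen by name with their measured fold changes between knockout and wild type known, so those differences are given as a description with no p-value.

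Parental (wild type) HAP1 cells, a near-haploid human line derived from a chronic myeloid leukaemia line, were compared with 1 CRISPR/Cas9-edited HAP1 line bought from the same company and described as carrying a frameshift insertion in a coding exon. The labels call the line a METAP1 knockout and write METAP1D in 1 place beside a METAP1 transcript. METAP1 encodes an aminopeptidase that removes the first methionine of new proteins. Both lines grew in the same serum-containing medium with penicillin and streptomycin, and the labels name no insulin, growth factor or other agent added. RNA-seq of ribosomal RNA-depleted total RNA gave 3 wild type and 2 knockout libraries, called biological replicates in the labels without a word on how the cultures were kept apart, so p-values reflect only how far these libraries scatter. With a single edited line, genotype and clone cannot be told apart. The wild type libraries are written WT1 to WT3, and the knockout libraries KO2 and KO3 after the numbers of the table's columns.

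The table held 12570051 to 16519292 reads per library. METAP1 was lower in both knockout libraries, at 611 and 748 normalized counts against 1868, 1932 and 1944 in wild type, a normalized count being the read count scaled to a common library size. In the fit across all genes (edgeR's quasi-likelihood test), 29.7% of the 10620 tested genes were called at a Benjamini-Hochberg adjusted p under 0.05 and 14.9% were called higher in the knockout. Of 12 haematopoietic markers only KIT was in the table, and the other 11 were not analysed here. Its level was 3.21 to 3.29 RPKM in wild type and 4.73 to 4.98 RPKM in the knockout. RPKM here are reads per kilobase of gene length scaled to the reads of the table, computed in the same way for all 5 libraries. Summed levels of markers of other cell types were higher in the knockout libraries, with single genes making up much of 2 of the sums. The mesenchymal marker VIM stood at 79.0 to 95.9 RPKM in wild type and 87.7 and 95.9 RPKM in the knockout, and was not called. The neural marker SOX2 stood at 191.8 to 281.1 RPKM in wild type and 489.7 and 402.0 RPKM in the knockout. The summed level of the 6 mesenchymal markers in the table was 125.5 to 144.1 RPKM in wild type and 183.0 to 186.8 RPKM in the knockout, and 3 of them were called higher. The 3 neural markers in the table summed to 230.1 to 325.4 RPKM in wild type and 484.6 to 578.8 RPKM in the knockout, with all 3 called higher. The 3 epithelial markers summed to 17.9 to 21.0 RPKM in wild type and 38.9 to 43.5 RPKM in the knockout, with 2 called higher. PPARG, the 1 marker of adipocytes or muscle in the table, stood at 8.03 to 8.67 RPKM in wild type and 9.69 to 9.70 RPKM in the knockout. The part of these markers in the results below was not tested.

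Transcripts of IRS1, IGF1R and PIK3R1 were called higher in the knockout, which is 3 of the 9 genes beside the 14.9% of all tested genes called higher, and none was called lower. IRS1 had the largest difference, from 117 ± 18.7 normalized counts in wild type (SD, n = 3) to 840 ± 27.5 in the knockout (SD, n = 2). The IGF1 receptor gene IGF1R followed, from 1297 ± 516 to 3535 ± 129 normalized counts (SD, n = 3 and 2). IRS2, INSR, IGF2R, PIK3CA, AKT1 and FOXO3 were not called, with fitted log2 fold changes between 0.11 and 0.48. In 6 of the 9 genes both knockout libraries lay above all 3 wild type libraries, beside 30.1% of all tested genes in that direction and 59.3% in either. All of these are levels in bulk RNA, in which more expressing cells and more RNA per cell cannot be told apart.

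IRS1 encodes the substrate best known from insulin signalling in muscle and from growth control. Its gene (ENSG00000169047) lies on the reverse strand of chromosome 2, from 226731317 to 226799759 in GRCh38. It stood at 111.8, 101.2 and 137.5 normalized counts in WT1, WT2 and WT3, from 104, 120 and 143 reads. In KO2 and KO3 it stood at 820 and 859 normalized counts, from 737 and 812 reads. The lower knockout library was 5.96 times the highest wild type library, while the wild type libraries differed among themselves by up to 1.36 times. The fitted log2 fold change was 2.85 (SE 0.149), and 7 of the 10620 tested genes had a larger one. It lay between 2.75 and 2.98 whichever library was left out, and IRS1 was called in each of those fits. Per length, wild type IRS1 measured 1.46, 1.34 and 1.79 RPKM, against 10.8 and 11.4 RPKM in the knockout. The wild type values are low for this table, in which no gene is below 1.00 on the deposited RPKM scale in any wild type library. The rank of the IRS1 fold change therefore covers only genes at or above that level in wild type.

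IRS2 encodes the paralogous substrate, known for its role in the liver and in pancreatic beta cells, and its gene (ENSG00000185950) is on chromosome 13 (109752698 to 109786568, reverse strand, GRCh38). It had 257, 169 and 156 normalized counts in WT1 to WT3 and 278 and 261 in KO2 and KO3. The knockout libraries were above the wild type ones, but WT1 came within 1.02 times of the lower knockout library. The log2 fold change was 0.48 (SE 0.215) and the gene was not called with all libraries. Without WT1 the value was 0.72 and the gene was called. IRS2 shares 115 exon bases with an antisense gene (AL162497.1) in GENCODE release 29. No source used here states how strand was handled in counting, so reads of the pair cannot be told apart.

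**Figure D1:**
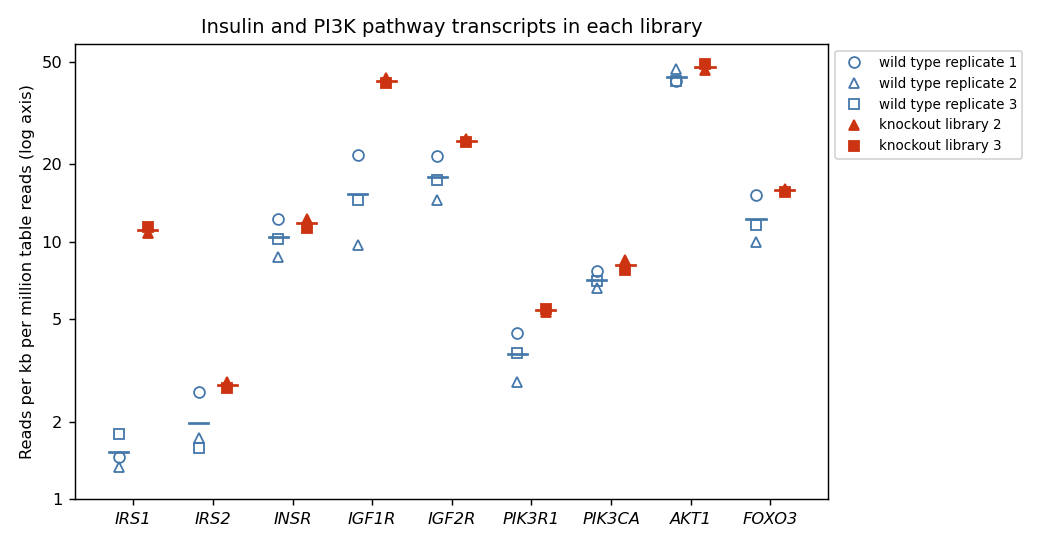
Level per length (RPKM scaled to the table's reads, log axis) of the 9 genes in each library, with wild type as open blue symbols, the knockout as filled red symbols and short lines for the group means. IRS1 moves from 1.34 to 1.79 RPKM in wild type to 10.8 and 11.4 RPKM in the knockout, IGF1R from 9.76 to 21.8 RPKM to 43.3 and 41.6 RPKM, and WT1 (circles) is the highest wild type library for most of the others.

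Per length, the proportion of the substrates' transcripts differed between the groups. In RPKM, IRS1 was 0.560, 0.772 and 1.14 times IRS2 in WT1 to WT3, and 3.79 and 4.23 times IRS2 in KO2 and KO3. IRS1 thus made up 35.9, 43.6 and 53.2% of the summed IRS1 and IRS2 level in wild type and 79.1 and 80.9% in the knockout. The sum of both was 3.07 to 4.06 RPKM in wild type and 13.6 and 14.1 RPKM in the knockout. IRS4, a further substrate, was not analysed here.

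The receptors differed among themselves. IGF1R encodes the receptor for IGF1 and IGF2, a tyrosine kinase built like the insulin receptor, on chromosome 15 (ENSG00000140443, 98648539 to 98964530, forward strand, GRCh38). It had 1840, 815 and 1237 normalized counts in WT1 to WT3 and 3627 and 3444 in KO2 and KO3. The wild type replicates spanned 2.26 times, the widest spread among the 9 genes, and the lower knockout library was 1.87 times the highest of them. The log2 fold change was 1.45 (SE 0.280). It ranged from 1.201 to 1.773 with a library left out, and the call was lost without WT3 (1.42), KO2 (1.41) or KO3 (1.49).

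INSR, the insulin receptor gene on chromosome 19 (ENSG00000171105, 7112255 to 7294034, reverse strand, GRCh38), overlapped between the groups. It had 1696, 1190 and 1430 normalized counts in WT1 to WT3 and 1680 and 1541 in KO2 and KO3, so both knockout libraries were below WT1. Its log2 fold change was 0.16 (SE 0.145), and -0.026 once each library's trend of counts with gene length had been removed. Both receptors are built from related chains that can pair with each other, so their proportion is of interest: in RPKM, IGF1R was 1.78, 1.12 and 1.42 times INSR in wild type and 3.53 and 3.66 times INSR in the knockout. IGF1R made up 52.8 to 64.0% of their summed level in wild type and 77.9 and 78.5% in the knockout.

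IGF2R has another job: it binds IGF2 without a kinase of its own, delivers it to lysosomes, and carries lysosomal enzymes that bear mannose 6-phosphate. The gene is on chromosome 6 (ENSG00000197081, 159969099 to 160113507, forward strand, GRCh38). It had 3027, 2008 and 2458 normalized counts in WT1 to WT3, and 3491 and 3364 in KO2 and KO3, with no overlap and a gap of 1.11 times between the nearest libraries. The log2 fold change of 0.46 (SE 0.159) was not called with all libraries, and was called without WT1 (0.60).

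**Figure D2:**
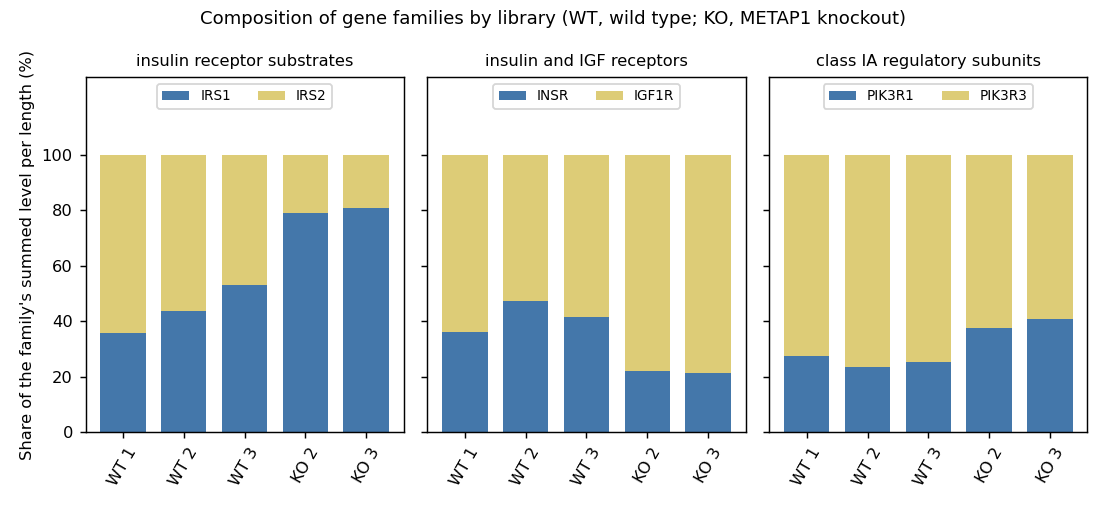
Share of each gene in the summed RPKM of the genes analysed from 3 gene families, as stacked bars per library (WT for wild type, KO for knockout). The genes are IRS1 and IRS2, INSR and IGF1R, and PIK3R1 and PIK3R3, without IRS4 and PIK3R2. IRS1 goes from 35.9 to 53.2% of the substrates to 79.1 and 80.9%, and IGF1R from 52.8 to 64.0% of the receptors to 77.9 and 78.5%.

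PI3K of class IA is a pair of a regulatory and a catalytic subunit. PIK3R1 encodes the p85-alpha regulatory subunit, which docks on phosphorylated IRS proteins, on chromosome 5 (ENSG00000145675, 68215720 to 68301821, forward strand, GRCh38). It had 462, 294 and 389 normalized counts in WT1 to WT3 and 555 and 563 in KO2 and KO3. Both knockout libraries were above all wild type libraries, with a log2 fold change of 0.55 (SE 0.179). The call was lost without WT2 (0.40), WT3 (0.57), KO2 (0.56) or KO3 (0.54), so it held in 1 of those 5 fits. PIK3R3, another regulatory subunit gene, had 897, 697 and 835 normalized counts in wild type and 674 and 598 in the knockout, and was not called (log2 fold change -0.35, adjusted p = 0.0867, edgeR quasi-likelihood test). In RPKM, PIK3R1 was 23.5 to 27.3% of the summed PIK3R1 and PIK3R3 level in wild type and 37.5 and 40.7% in the knockout. Their sum was 12.1 to 16.2 RPKM in wild type and 14.3 and 13.5 RPKM in the knockout, so it overlapped between the groups. PIK3R2, a further regulatory subunit gene, was not analysed here, so these are not shares of all class IA regulatory subunits.

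PIK3CA encodes the p110-alpha catalytic subunit, on chromosome 3 (ENSG00000121879, 179148114 to 179240093, forward strand, GRCh38). It had 1021, 865 and 934 normalized counts in WT1 to WT3 and 1112 and 1004 in KO2 and KO3, which overlap. The log2 fold change was 0.17 (SE 0.113), and -0.015 with the length trend removed. PIK3CA shares 3403 exon bases with KCNMB3 on the opposite strand and has a pseudogene copy, so its count is uncertain. Among the other catalytic subunits PIK3CD was called higher, at 252, 225 and 205 normalized counts in wild type and 349 and 341 in the knockout (log2 fold change 0.60, SE 0.137, adjusted p = 0.0126, edgeR quasi-likelihood test). PIK3CD lost its call without WT3 (0.535), KO2 (0.59) or KO3 (0.62).

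AKT1, the kinase gene on chromosome 14 (ENSG00000142208, 104769349 to 104795751, reverse strand, GRCh38), was the most abundant of the 9 per length and differed least. It had 2704, 2958 and 2701 normalized counts in WT1 to WT3 and 2951 and 3077 in KO2 and KO3. Its groups overlapped, and the log2 fold change was 0.11 (SE 0.0922). It shares 663 exon bases with an antisense gene (AL583722.2).

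FOXO3, which AKT inhibits, is on chromosome 6 (ENSG00000118689, 108559835 to 108684774, forward strand, GRCh38). It had 797, 513 and 609 normalized counts in WT1 to WT3 and 834 and 799 in KO2 and KO3. The lower knockout library lay just above WT1. The log2 fold change was 0.36 (SE 0.176), not called with all libraries and called without WT1 (0.53). A near-identical copy, FOXO3B, could share reads with it.

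**Figure D3:**
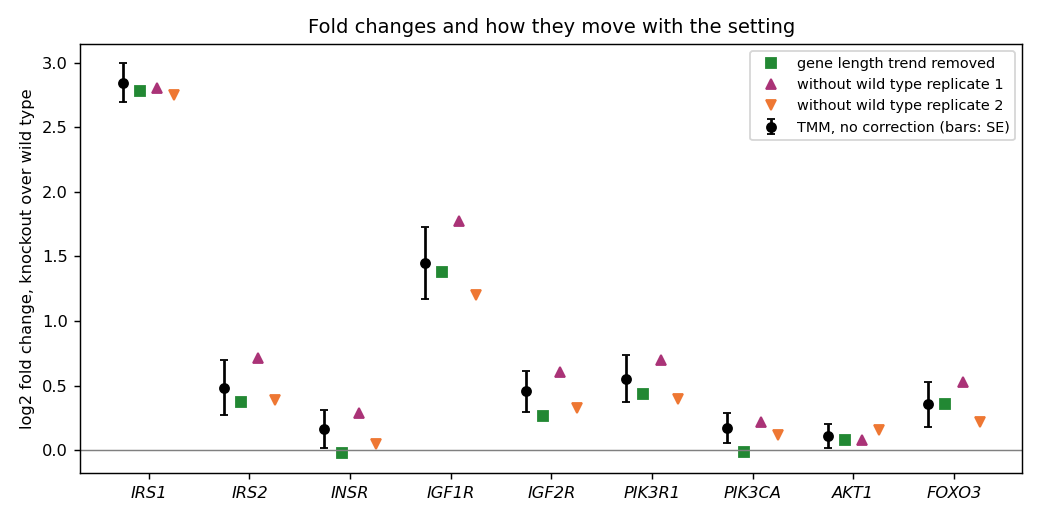
Fitted log2 fold change of knockout over wild type for the 9 genes (black, bars are standard errors), with the gene length trend removed and without WT1 or 2. IRS1 stays at 2.75 or above, INSR and PIK3CA reach -0.026 and -0.015 with the length trend removed, and the 7 genes other than IRS1 and AKT1 lie above their full-data value without WT1.

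In wild type cells the order of levels per length was AKT1 at 43.8 ± 2.68 RPKM (SD, n = 3), IGF2R at 17.9 ± 3.56, IGF1R at 15.4 ± 6.05, FOXO3 at 12.3 ± 2.73 and INSR at 10.4 ± 1.78 RPKM. Below these came PIK3CA at 7.12 ± 0.557, PIK3R1 at 3.65 ± 0.787, IRS2 at 1.97 ± 0.556 and IRS1 at 1.53 ± 0.233 RPKM (SD, n = 3). The ranges of the replicates overlapped between IGF2R and IGF1R, IGF1R and FOXO3, FOXO3 and INSR, and IRS2 and IRS1, so over the 3 libraries these neighbours do not differ beyond their spread. FOXO3 was nonetheless above INSR within each wild type library, while the order within the other 3 pairs changed from library to library. AKT1, INSR, PIK3CA and PIK3R1 did not overlap with the next gene below. In the knockout IRS1 stood at 11.1 ± 0.460 RPKM (SD, n = 2), next to INSR at 11.8 ± 0.618 RPKM (SD, n = 2). IGF1R, at 42.4 ± 1.19 RPKM (SD, n = 2), stood next to AKT1 at 47.8 ± 1.82 RPKM (SD, n = 2).

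The wild type libraries themselves were ordered in these genes. In 6 of the 9 genes WT1 was the highest and WT2 the lowest wild type library, an order found in 28.4% of all tested genes. The median log2 ratio of WT1 to WT2 was 0.59 over the 9 genes and -0.006 over all tested genes. The ratio was 1.18 in IGF1R, 0.65 in PIK3R1, 0.63 in FOXO3, 0.61 in IRS2 and 0.59 in IGF2R, and it was 0.14 in IRS1. Gene length moved with it. Of the 9 genes, 8 were longer than the median tested gene, with a median of 6999 bases against 3944 bases. When all tested genes were split by length into 10 equal classes, the median of the same ratio went from -0.18 (shortest) to 0.32 (longest), and the log2 fold change of knockout over wild type from -0.15 to 0.21. With the length trend of each library removed, the log2 fold changes were 2.78 for IRS1, 1.38 for IGF1R and 0.44 for PIK3R1, all 3 still called. The median over the 9 genes was 0.46 before and 0.36 after removal, and over all tested genes 0.01 and -0.004. FOXO3, in length class 5, shared the order of the wild type libraries although genes of its length had a median ratio of -0.04.

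**Figure D4:**
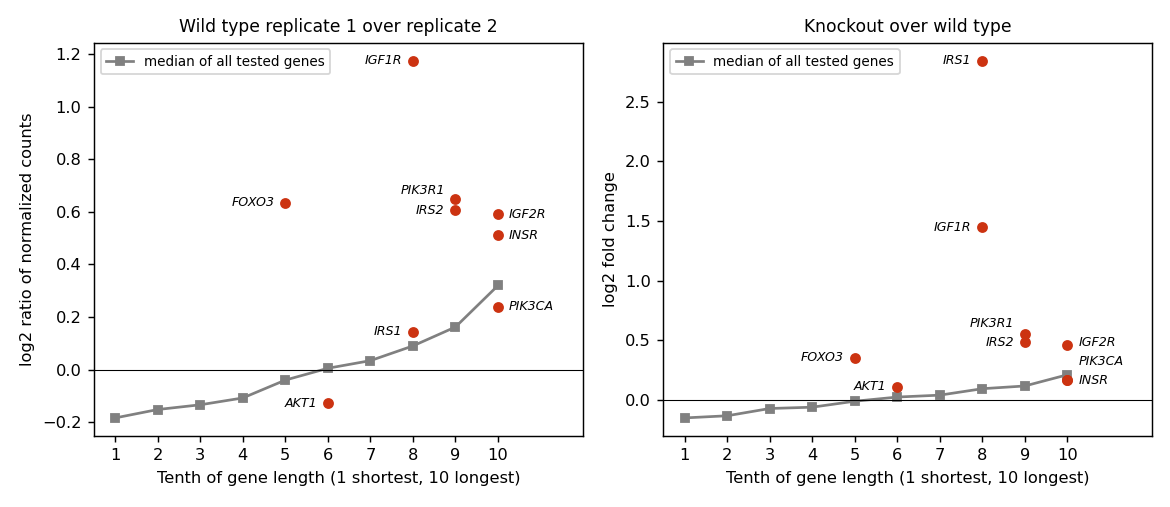
Left, log2 ratio of WT1 to WT2 and, right, log2 fold change of knockout over wild type, against the class of gene length (10 equal classes, shortest first), with the median of all tested genes in grey and the 9 genes in red. The grey line climbs from -0.18 to 0.32 on the left and from -0.15 to 0.21 on the right, while IRS1 (2.85) and IGF1R (1.45) stand far above it on the right.

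The stretch of 250 bases before the start annotated by RefSeq is printed for the substrates and receptors, whose transcripts differed in response. The sequences are from RefSeq (GRCh38.p14), 5′ to 3′ on the strand of the gene. Capitals mark matches, on both strands, to 4 motifs: the FOXO core TGTTTAC, the core of an insulin response element TGTTTTG, the E-box CACGTG and the GC box GGGCGG, the E-box being the same on both strands. No match to one motif overlapped a match to another in these windows.
IRS1, chr2:226799821-226800070, reverse strand: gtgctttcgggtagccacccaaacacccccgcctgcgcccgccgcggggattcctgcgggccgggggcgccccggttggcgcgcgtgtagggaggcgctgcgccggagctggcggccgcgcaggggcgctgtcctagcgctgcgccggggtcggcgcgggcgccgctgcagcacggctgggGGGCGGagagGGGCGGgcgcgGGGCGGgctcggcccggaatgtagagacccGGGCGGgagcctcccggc
IRS2, chr13:109786584-109786833, reverse strand: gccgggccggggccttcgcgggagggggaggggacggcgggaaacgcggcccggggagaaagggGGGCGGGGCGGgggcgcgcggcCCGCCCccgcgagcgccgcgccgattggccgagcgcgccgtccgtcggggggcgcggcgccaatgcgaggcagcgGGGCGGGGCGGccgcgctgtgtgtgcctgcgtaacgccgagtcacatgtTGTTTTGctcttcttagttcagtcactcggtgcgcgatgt
IGF1R, chr15:98648289-98648538, forward strand: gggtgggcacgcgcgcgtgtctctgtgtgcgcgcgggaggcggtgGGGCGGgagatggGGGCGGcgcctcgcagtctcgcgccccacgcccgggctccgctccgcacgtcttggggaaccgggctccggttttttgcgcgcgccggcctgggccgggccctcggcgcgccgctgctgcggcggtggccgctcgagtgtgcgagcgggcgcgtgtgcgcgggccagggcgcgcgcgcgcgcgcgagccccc
INSR, chr19:7294415-7294664, reverse strand: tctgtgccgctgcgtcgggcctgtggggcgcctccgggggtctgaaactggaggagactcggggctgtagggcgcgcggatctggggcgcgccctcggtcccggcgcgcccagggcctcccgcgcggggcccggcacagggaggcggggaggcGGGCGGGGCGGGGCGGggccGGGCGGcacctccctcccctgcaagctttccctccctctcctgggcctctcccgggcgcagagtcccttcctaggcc
IGF2R, chr6:159968832-159969081, forward strand: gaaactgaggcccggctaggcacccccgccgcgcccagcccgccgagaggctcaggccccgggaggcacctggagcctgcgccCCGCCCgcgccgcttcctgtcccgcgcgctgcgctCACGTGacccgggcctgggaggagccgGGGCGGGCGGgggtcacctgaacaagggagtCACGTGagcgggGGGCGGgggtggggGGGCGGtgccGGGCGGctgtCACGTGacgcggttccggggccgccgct

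The 9 genes have 16 RefSeq windows, of which 13 held a GC box, as did 42.6% of 35116 human windows of the same length. IRS1, at 4 matches, and IGF1R, at 2, were called higher, and INSR, at 4, and IRS2, at 5, were not. The FOXO core was in 1 gene, PIK3CA, 149 bases before the RefSeq start, and in 2.98% of all windows. That start lies downstream of the GENCODE start given above, so the match is inside the gene as GENCODE bounds it. The core of the insulin response element was in IRS2 alone among the 9 genes, 40 bases before the start, and in 4.30% of all windows. IGF2R held 3 E-boxes, at 132, 74 and 28 bases before the start, and 6.34% of all windows held at least 1. Windows without a match say only that these letters are not in them.

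The other genes of the pathway were taken from 8 lists with 142 entries, of which 116 were tested. Of these, 23 were called higher and 5 lower in the knockout, which together is 24.1%. Of all tested genes 14.9% were called higher, 14.8% lower and 29.7% in either direction. The median log2 fold change of the 116 genes was 0.15, against 0.01 over all tested genes. It was 0.07 with the length trend removed, where 24 were called higher and 9 lower. The counts depended on the libraries kept, as did those over all tested genes, which were 1580 higher and 1570 lower with all libraries. Without WT3, 12 of the list genes were called higher and 3 lower, beside 843 and 822 of all tested genes. Without WT1 it was 33 and 11, beside 2313 and 2278, and without WT2 20 and 5, beside 1448 and 1418. Counts of the single lists below are to be read beside these. The median of the list genes was 0.133 without KO2 and 0.128 without KO3.

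Close to the receptors, 6 of 23 tested adaptors and regulators were called higher, beside 14.9% of all tested genes, and none lower. Their median log2 fold change was 0.19. The count was 3 without WT3, KO2 or KO3, and 8 higher and 2 lower without WT1. GAB2, a docking protein that recruits PI3K, rose from 977, 879 and 864 normalized counts in wild type to 2008 and 1954 in the knockout (log2 fold change 1.13, SE 0.0969, adjusted p = 0.00015). PTPN1, a phosphatase that dephosphorylates the insulin receptor, rose from 856, 816 and 835 to 1428 and 1586 normalized counts (0.85, SE 0.0977, adjusted p = 0.000648). GRB14, an adaptor that inhibits the insulin receptor kinase, rose from 74.2, 65.8 and 89.4 to 165 and 181 normalized counts (1.18, SE 0.178, adjusted p = 0.00224). In these 3 genes the groups did not overlap, and each was called whichever library was left out. The ubiquitin ligase gene CBL rose too (0.88, SE 0.201, adjusted p = 0.0156), but lost its call without WT3 (0.90), KO2 (0.74) or KO3 (1.005). All adjusted p-values of these list genes are Benjamini-Hochberg values over all tested genes from edgeR's quasi-likelihood test.

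Of the ligands and IGF binding proteins, 4 of 11 listed genes were in the table and none of them was a ligand. IGFBP5, which binds IGFs outside the cell, rose from 3589, 2262 and 2912 normalized counts in wild type to 8556 and 7714 in the knockout (log2 fold change 1.48, SE 0.175, edgeR adjusted p = 0.00112), and was called whichever library was left out. IGFBP2, IGFBP4 and IGFBP6 were not called. The IGF1, IGF2 and INS genes were not analysed here.

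The list of other PI3K subunits had 8 tested genes, among them PIK3AP1, which encodes an adaptor of PI3K and no subunit. PIK3CD was the gene called, so 1 of 8 was called higher and 0 lower, beside 14.9% and 14.8% of all tested genes. With the length trend removed 1 was called higher and 2 lower, and the shares of all tested genes in that fit are not given here. Phosphatases that act on phosphoinositides or on AKT had 5 of 11 called higher, beside 14.9% of all tested genes, and none lower. Their median log2 fold change was 0.33. PPP2R2A, a regulatory subunit of protein phosphatase 2A, rose from 1496, 1173 and 1485 normalized counts to 2317 and 1870 (0.60, SE 0.139, edgeR adjusted p = 0.0142), and was not called without KO2 (0.44). The inositol phosphatase genes INPPL1 (0.46, SE 0.104, edgeR adjusted p = 0.0125), INPP4A (0.39, SE 0.0964, edgeR adjusted p = 0.0179) and INPP5F (0.41, SE 0.113, edgeR adjusted p = 0.027) rose by less. The list's count was 1 without WT3, where 843 of all tested genes were called higher, against 1580 with all libraries. Its median log2 fold change was 0.28 without KO2 and 0.296 without KO3.

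Downstream, 1 of 14 AKT-related kinases, substrates and regulators was called higher and 1 lower, beside 14.9% and 14.8% of all tested genes. TBC1D1, a Rab regulator that AKT phosphorylates, rose from 1348, 1610 and 1451 normalized counts to 2779 and 2551 (0.86, SE 0.105, edgeR adjusted p = 0.000889) and kept its call with each library left out. TRIB2, a pseudokinase, fell from 330, 363 and 315 to 210 and 225 normalized counts (-0.63, SE 0.135, edgeR adjusted p = 0.0102), a call lost without KO2 or KO3 (-0.68 to -0.57).

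Of 22 genes of the MTOR complexes, TSC and translation, 2 were called higher and 1 lower, beside 14.9% and 14.8% of all tested genes. The count was 5 and 2 without WT1, 1 and 0 without WT3, and 1 and 0 without KO2. Without WT2 or KO3 it was 2 and 0. DDIT4, an inhibitor of MTOR complex 1 induced by stress, rose from 267, 250 and 217 normalized counts to 575 and 442 (1.06, SE 0.156, edgeR adjusted p = 0.00203), with a call in every fit that left out a library. DEPTOR, an MTOR-binding inhibitor, rose from 169, 168 and 162 to 292 and 221 normalized counts (0.63, SE 0.158, edgeR adjusted p = 0.0192), and was not called without WT3 or KO2 (0.41). EIF4E, the cap-binding translation factor gene, was called lower (-0.33, SE 0.104, edgeR adjusted p = 0.0441), but not without WT2, WT3, KO2 or KO3 (-0.41 to -0.28), nor with library totals in place of TMM.

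**Figure D5:**
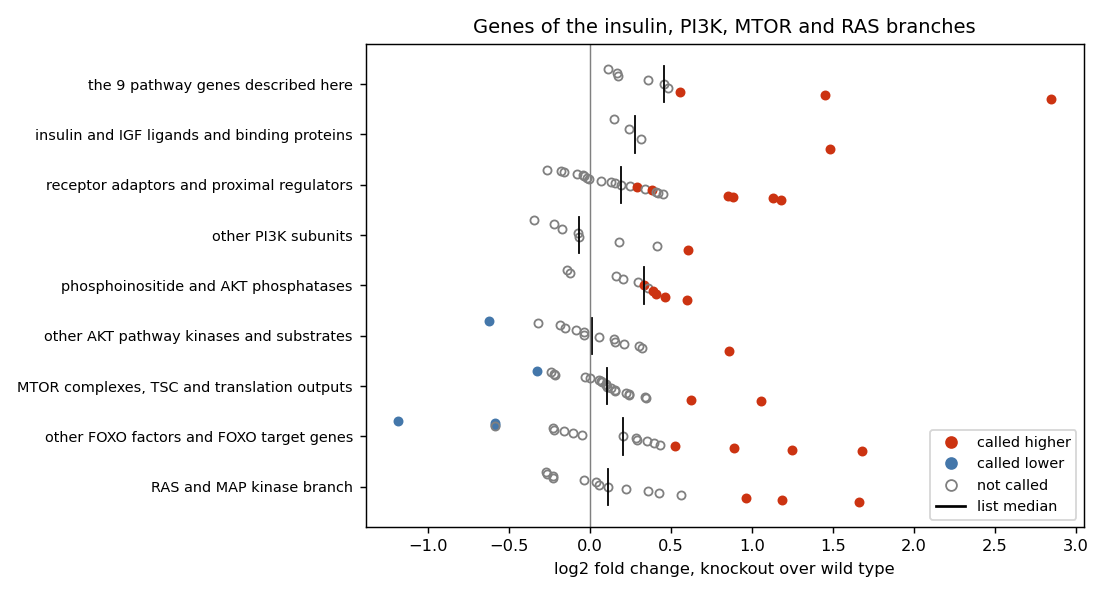
Log2 fold change of knockout over wild type for the 9 genes and the genes of the 8 pathway lists, 1 point per gene, with genes called higher in red, called lower in blue and not called as open circles. Vertical lines mark list medians, from -0.07 in the list of other PI3K subunits to 0.33 in the phosphatases, and called genes lie mainly to the right of 0.

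Of 19 FOXO factors and FOXO targets, 4 were called higher and 3 lower, beside 14.9% and 14.8% of all tested genes. The lower calls were all lost without KO2 (1 higher, 0 lower) or KO3 (3 higher, 0 lower), and the count was 1 and 2 without WT2, 2 and 2 without WT3, and 6 and 4 without WT1. TXNIP, a target that restrains glucose uptake, stood at 1011, 1169 and 1063 normalized counts in wild type and at 4701 and 2222 in KO2 and KO3, so KO2 was far above KO3 (1.68, SE 0.267, edgeR adjusted p = 0.00364). BCL6 showed the same inequality, with 163, 127 and 143 normalized counts in wild type and 466 and 220 in the knockout (1.25, SE 0.294, edgeR adjusted p = 0.0174). PINK1, a mitochondrial kinase gene, rose from 618, 862 and 696 to 1468 and 1225 normalized counts (0.89, SE 0.153, edgeR adjusted p = 0.00384). CDKN1B, a cyclin-dependent kinase inhibitor gene and FOXO target, fell from 1437, 1798 and 1620 to 1126 and 1029 normalized counts (-0.59, SE 0.119, edgeR adjusted p = 0.00799). CAT (-0.59) and GADD45A (-1.19), named after their values were seen, were the other genes called lower. CAT lost its call without WT3, KO2 or KO3 (-0.73 to -0.47 over all libraries left out). GADD45A lost it without WT2, WT3, KO2 or KO3 (-1.45 to -0.79), with library totals, with limma-voom and with the length trend removed. FOXO1 was called higher (0.52, SE 0.166, edgeR adjusted p = 0.0455), also named after its value was seen. FOXO1 lost its call without WT2, WT3, KO2 or KO3. TXNIP lost its call without WT2 (1.74; 1.04 to 2.12 over all libraries left out), BCL6 without WT2, WT3 or KO2 (0.61 to 1.69), PINK1 without KO2 (0.76) and CDKN1B without KO2 or KO3 (-0.68 to -0.50).

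On the RAS branch, which the same receptors feed through SHC and GRB2, 3 of 15 genes were called higher and none lower. Among all tested genes 14.9% were called higher and 14.8% lower. The count was 5 higher and 2 lower without WT1 and 4 higher and 1 lower without WT2. SPRY2, which encodes an inhibitor of receptor tyrosine kinase signalling, rose from 84.9, 84.3 and 73.1 normalized counts in wild type to 219 and 291 in the knockout (1.66, SE 0.176, edgeR adjusted p = 0.000444). SPRED1 rose from 673, 661 and 701 to 1582 and 1500 normalized counts (1.18, SE 0.0958, edgeR adjusted p = 0.000121), and SPRED2 from 304, 224 and 302 to 574 and 505 (0.96, SE 0.160, edgeR adjusted p = 0.00334). Their groups did not overlap and each was called whichever library was left out. The RAS, RAF, MEK and ERK genes in the table were not called, nor were NF1 (0.56, edgeR adjusted p = 0.0973) and RASA1 (0.35, edgeR adjusted p = 0.0723), which encode inhibitors of RAS.

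The genes most like IRS1 across the 5 libraries, by the root mean square difference of centred log2 CPM, were DSE at 0.133, COL11A1 at 0.184 and TMEM47 at 0.203 on the log2 scale. DSE had 158, 169 and 187 normalized counts in wild type and 1052 and 1328 in the knockout, and its log2 fold change was 2.80 beside 2.85 for IRS1. The gene most like IGF1R was IL18BP at 0.0741, with 130, 54.0 and 83.7 normalized counts in wild type and 255 and 212 in the knockout. The gene most like PIK3R1 was WWP1 at 0.0245, with a log2 fold change of 0.59 (SE 0.179). All of these genes were chosen by their pattern over the same 5 libraries, so similar fold changes follow from the choice.

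The authors' deposited table gave the same directions for all 9 genes. In the authors' deposited table the log2 fold changes were 2.66 for IRS1, 1.05 for IGF1R, 0.51 for PIK3R1 and 0.43 for IGF2R, and these 4 had an adjusted p under 0.05, beside 15.8% of all genes called higher and 31.6% called in either direction there. The authors' deposited table had IRS2 at 0.42, FOXO3 at 0.32, PIK3CA at 0.16, INSR at 0.15 and AKT1 at 0.11, all above that threshold.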

How the data were processed

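HAP1 libraries were made from ribosomal RNA-depleted total RNA with a stranded kit and sequenced single-end, per the labels' protocols. Per the submitters' processing notes, the tools were STAR 2.4.0i, HTSeq and DESeq2 and the builds GRCh37 and hg19, whose roles are not given in the sources used here. The authors deposited 1 table with raw read counts and RPKM values per library. The deposited wild type RPKM equal the counts scaled by gene length and by a library total of which the table holds 89.05 to 91.22%. The 2 knockout RPKM columns, which cannot be tied to single samples, were not used, and RPKM scaled to the table's reads were computed for all 5 libraries. The authors also deposited a comparison of the groups, with log2 fold changes, a score (the test statistic), p-values raw and adjusted, and a signal that averages normalized reads over libraries.

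Wild type columns were matched to titles by number. Knockout columns are numbered 2 and 3 and the titles 1 and 2, so neither is assigned to 1 title and both enter only as the knockout group. The whole table of counts was fitted in R 4.3.3 by edgeR 4.0.16 (6 genes dropped by filterByExpr, TMM, robust quasi-likelihood F-test, 3 residual degrees of freedom, no covariate), with Benjamini-Hochberg adjustment over 10620 genes. Standard errors are the log2 fold change divided by the square root of F. Ratios between 2 libraries used log2 of normalized counts plus 0.5. Scripts were tested on simulated counts: changes of the size fitted for IRS2 and IGF2R were mostly missed, larger ones were recovered, and with gene-specific dispersions false calls exceeded the nominal share. Chi-square per degree of freedom between replicates was 10.1 to 34.9, so no 2 libraries agreed within sampling noise.

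The 9 genes, the pathway lists and the tests were chosen with earlier results of these data known. From each list up to 4 called genes with the smallest adjusted p were named. Symbols were matched by Ensembl ID (10514 matched). Gene positions are from GENCODE release 29 (GRCh38), and none was converted between builds. Promoter windows were matched by symbol for all 9 genes. Other settings were median-of-ratios size factors, library totals, genes kept unfiltered, a minimum mean count of 50, DESeq2 1.42.0, limma-voom (limma 3.58.1), each library left out, a replicate block and removal of the length trend (lowess, span 0.3). Removal of the GC content trend was added after seeing the data. Depth limits the low genes most, and with 2 knockout libraries the SD there rests on 1 difference. One result of a pathway list is not reported here.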

Additional observations from a re-analysis of the deposited data

How the results depend on the processing

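Among the settings tried with all 5 libraries, IRS1, IGF1R and PIK3R1 were called higher in each. IGF2R was also called with library totals in place of TMM (log2 fold change 0.474), with DESeq2 (0.454) and with the GC content trend removed (0.450). INSR and PIK3CA changed sign with the gene length trend removed, to -0.026 and -0.015, and were not called in either case. With each library left out in turn, 1 to 6 of the 9 genes were called higher and 0 lower, and over all genes 615 to 2313 were called higher and 564 to 2278 lower, against 1580 and 1570 with all libraries. The log2 fold change then ranged from 0.349 to 0.717 for IRS2, 0.322 to 0.604 for IGF2R, 0.217 to 0.528 for FOXO3, 1.201 to 1.773 for IGF1R and 0.395 to 0.700 for PIK3R1. Leaving out a knockout library leaves 1 sample, which is then assumed to vary like the wild type. The low levels of wild type IRS1 and IRS2, at 104 to 239 reads a library, limit the precision of their shares.

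The titles number wild type samples 1 to 3 and knockout samples 1 and 2, while the read columns of the knockout carry 2 and 3. Same-numbered columns shared little: their deviations from the group means correlated at 0.0316 for number 2 and -0.00254 for number 3. With 2 knockout libraries the deviations of 1 mirror those of the other, so these values cannot settle whether the numbers pair the samples. A replicate block by column number called 6 of the 9 genes higher, adding IRS2 (0.734), IGF2R (0.625) and FOXO3 (0.546). With the block the MTOR list had 6 higher and 2 lower, the adaptors 8 and 1, the list of other PI3K subunits 3 and 0, and the RAS branch 5 and 0. Wild type replicate 1 is alone in its block and adds nothing to that contrast. The fit without that library also called 6 of the 9 genes higher, and 2313 of all tested genes against 1580 with all libraries. Calls over all tested genes with the block are not given here. The block counts are therefore not read as a result about the 9 genes or the lists. On the deposited RPKM scale wild type AKT1 was at 39.6 and PIK3CA at 6.44 RPKM, against 43.8 and 7.12 RPKM scaled to the table's reads.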
